A study of Mus musculus with 6 samples.

Results

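The major histocompatibility complex (MHC) and antigen presentation genes were described in the left sciatic nerve of female and male mice, in the proximal stump that remains connected with the dorsal root ganglia after a cut. Members were the genes with a protein-coding transcript and a symbol that starts with H2-, together with Cd74, B2m, Tap1, Tap2, Tapbp, Ciita, Nlrc5, Psmb8, Psmb9 and Psmb10. The rule gave 47 of the 54309 genes in the files, of which 21669 had a protein-coding transcript, and it used no measured value. The female and the male group each held 3 mRNA libraries from C57BL6/J mice aged 6 to 8 weeks, all collected 24 h after axotomy (transection at mid-thigh), with the tissue of 2 mice pooled for every library. Both groups were injured and no uncut nerve was included, so a difference between them is a difference between the sexes in the cut nerve. Whether it was there before the cut or arose after it cannot be told apart. P-values measure the spread between pools.

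Antigen presentation shows peptides to T cells. Class I molecules, made of a heavy chain and beta-2-microglobulin, sit on nearly all cells and carry peptides that the proteasome cuts and the TAP transporter brings into the endoplasmic reticulum. Class II molecules, made of an alpha and a beta chain, are found mainly on macrophages, dendritic cells and B cells, where the invariant chain Cd74 guards the groove until the H2-DM dimer swaps its remnant for a peptide from the endosome. In nerve, resident macrophages and other myeloid cells are the known main carriers of class II, and Schwann cells can be induced to express it.

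The MHC genes sit together on chromosome 17, which held 42 of the 47 members. Class II promoters share short boxes, the X box bound by the RFX complex and the Y box bound by NF-Y, on which the transactivator Ciita assembles. The bases before the transcription start of H2-DMa and H2-DMb1, the only members that passed the test below, are shown with those of H2-DMb2, a close copy of H2-DMb1, and of the class II chain genes H2-Aa and H2-Eb1. Capitals mark TGATTGG (a Y box core) and AGNAAC (part of the X box) on the strand of the gene, and the letters of the latter were chosen after these windows had been read. Each run holds the 150 bases up to the base before the start, 5′ to 3′.
H2-DMa: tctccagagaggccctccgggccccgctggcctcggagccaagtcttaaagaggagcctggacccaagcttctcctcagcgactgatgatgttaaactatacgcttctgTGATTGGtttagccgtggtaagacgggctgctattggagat
H2-DMb1: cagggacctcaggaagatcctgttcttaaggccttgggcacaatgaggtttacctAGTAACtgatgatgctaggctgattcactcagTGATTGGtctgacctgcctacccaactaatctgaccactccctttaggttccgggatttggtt
H2-DMb2: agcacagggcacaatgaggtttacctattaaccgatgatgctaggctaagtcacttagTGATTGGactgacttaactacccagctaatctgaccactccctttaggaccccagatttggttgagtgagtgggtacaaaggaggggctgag
H2-Aa: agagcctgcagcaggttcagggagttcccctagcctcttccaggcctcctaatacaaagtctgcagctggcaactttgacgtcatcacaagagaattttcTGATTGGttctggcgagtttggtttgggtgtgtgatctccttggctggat
H2-Eb1: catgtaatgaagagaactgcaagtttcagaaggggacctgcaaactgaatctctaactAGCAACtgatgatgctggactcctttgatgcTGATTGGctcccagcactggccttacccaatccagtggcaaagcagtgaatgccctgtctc

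The windows of H2-DMb1 (chr17:34153041-34153190, plus strand), H2-DMb2 (chr17:34145099-34145248, plus strand), H2-Aa (chr17:34287824-34287973, minus strand) and H2-Eb1 (chr17:34305717-34305866, plus strand) came from RefSeq promoters on GRCm38.p6. Neither RefSeq window of H2-DMa lay before the start of H2-DMa-205, the transcript that took most of its counts, so its window (chr17:34354410-34354559, plus strand) was read from GRCm39, the build of the files. On either strand of the 250 bases before the start, TGATTGG occurred in 7.23% of all 32851 RefSeq windows and in those of 23 of the 37 members in the table, including 7 of its 8 class II chain and class II loading genes (all but H2-DMa). AGNAAC occurred in 42.3% of all windows, and AGNAAC followed by TGATTGG on 1 strand, their starts at most 40 bases apart, in 0.286%. That pair was in the windows of H2-DMb1, H2-Eb1, H2-Eb2, H2-Oa and H2-Ob. The H2-DMa window held TGATTGG at bases 41 to 35 before the start and no AGNAAC, and the H2-DMb2 window held TGATTGG at bases 92 to 86 and no AGNAAC. For class I, the kappa B site GGGGATTCC, in 0.213% of all windows, was in those of H2-D1, H2-K1, H2-Q6 and H2-Q7, and the interferon response element GAAANNGAAA, in 2.98%, was in those of B2m, H2-T22 and H2-T23. These matches describe the letters only.

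The estimated counts per library came to 49158283 to 69848769, and the 47 members took 0.238% to 0.396% of them. Over all genes, 18424 remained after low counts were filtered out and entered edgeR's quasi-likelihood test, and 702 (3.81%) passed an adjusted p under 0.1 as higher in males and 269 (1.46%) as higher in females. Schwann cell markers were more abundant in the male libraries, with a list summing to 42779 to 51784 TPM (a level corrected for transcript length and depth) against 19454 to 25419 in females. All 10 markers of central neurons and glia (Aqp4, Mobp, Mog, Slc1a2, Slc6a11, Slc32a1, Syt1, Rbfox3, Olig1 and Gria2) passed as higher in males, from sums of 0.959 to 1.49 TPM in females to 8.79 to 23.2 in males. The marker lists were chosen with earlier results of these data known, so this count is not an independent observation. Fast muscle genes (Myh4, Actn3 and Pvalb) passed as lower in males. The sums of their list overlapped between the sexes, and the highest was in male 3. They were 347.9, 497.1 and 37.6 TPM in females 1, 2 and 3 and 17.3, 13.7 and 571 TPM in males 1, 2 and 3.

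Of the 47 members, 34 passed the filter on low counts. H2-DMa and H2-DMb1, which encode the alpha and beta chains of the H2-DM peptide editor, rose in males, 1.73-fold and 1.71-fold, and no other member passed an adjusted p under 0.1 in edgeR. That is 2 of 34 tested members higher in males, beside 3.81% of all genes, and 0 higher in females, beside 1.46%. At an unadjusted p under 0.05, 3 members were higher in males (the third being H2-Ke6) and 0 in females. Of all 18424 tested genes, 2028 were higher in males and 1783 in females at this unadjusted threshold. Limma-voom and DESeq2 also called 0 members higher in females. The members had a median log2 fold change (male minus female) of -0.04, with 15 above and 19 below 0, beside a median of -0.03 over all tested genes. CPM values, which are counts relative to the TMM-scaled library total, of the sexes did not overlap for 4 members with males above, H2-DMa, H2-DMb1, H2-M5 and H2-Ke6, and for 0 members with females above. Over all tested genes, 13.9% did not overlap with males above and 11.5% with females above.

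**Figure D1:**
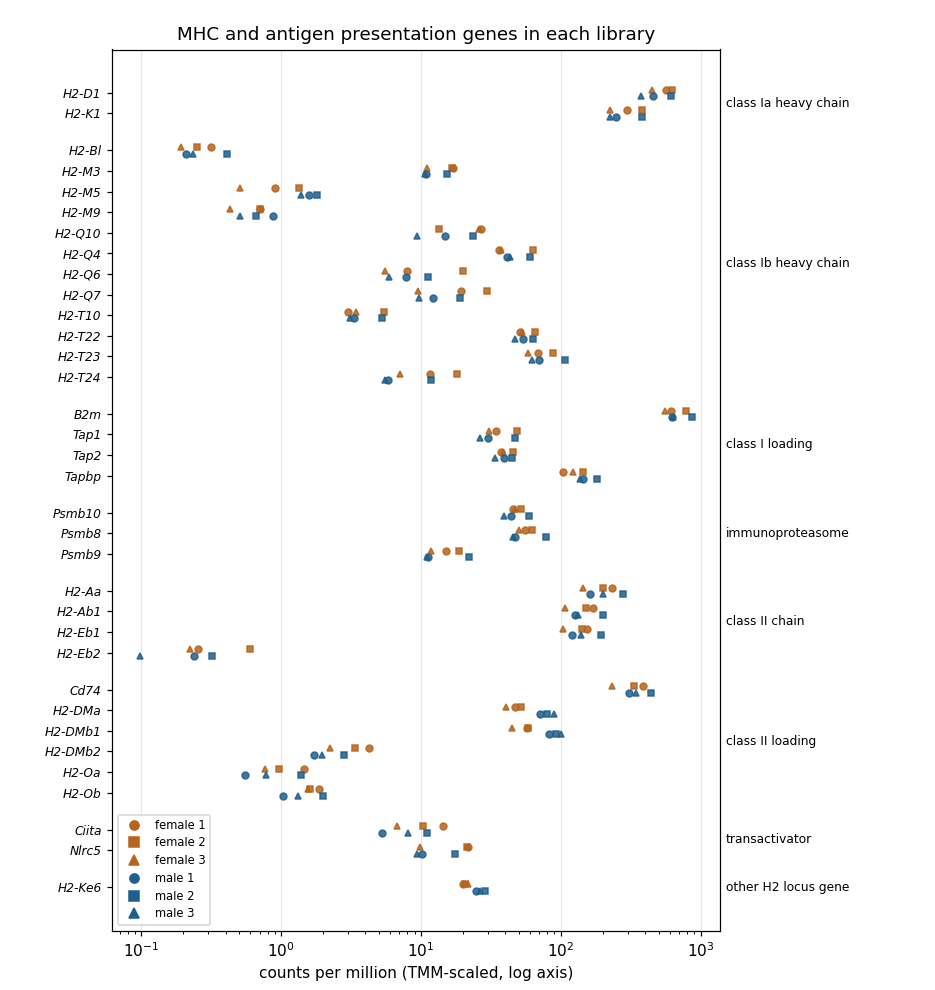
CPM of the 34 tested members in each library on a log axis, grouped by role, with females in brown, males in blue and a marker shape per library number. H2-DMa lies between 40.2 and 51.5 in females and between 71.3 and 89.1 in males, while the values of most other members interleave.

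**Figure D2:**
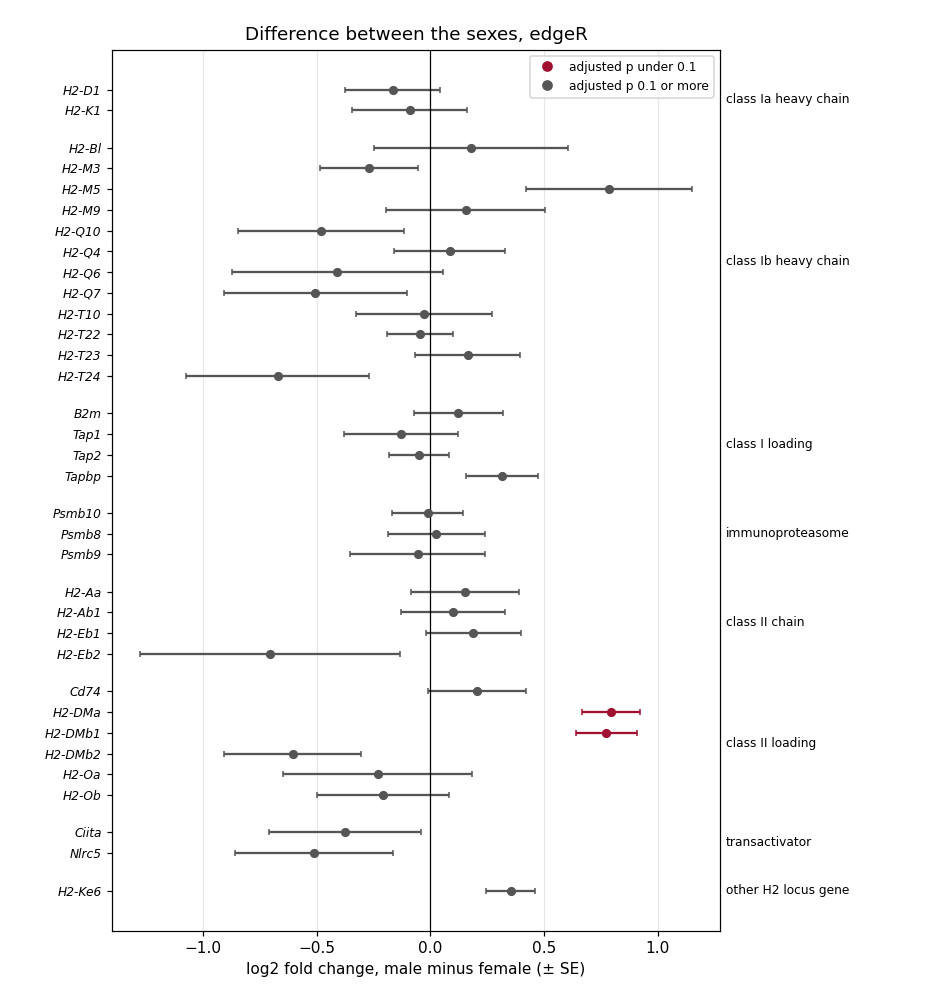
Log2 fold change, male minus female, with its SE (bars) for each tested member from edgeR on 3 libraries per sex. Only H2-DMa (0.79) and H2-DMb1 (0.77), in red, have an adjusted p under 0.1.

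The H2-DM genes are described first. H2-DMa had 47.2, 51.5 and 40.2 CPM in females 1, 2 and 3 and 71.3, 80.2 and 89.1 CPM in males 1, 2 and 3. The lowest male library was above the highest female library. The log2 fold change was 0.79 ± 0.13 (SE), with an edgeR adjusted p of 0.0386. H2-DMb1 had 57.2, 58.5 and 44.7 CPM in females and 81.9, 92.9 and 99.7 CPM in males, again with no overlap. Its log2 fold change was 0.77 ± 0.13 and its edgeR adjusted p 0.0438.

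On the TPM scale H2-DMa averaged 63.0 ± 12.6 in females and 109.6 ± 14.0 in males (SD, n = 3), and H2-DMb1 averaged 52.5 ± 11.1 and 91.9 ± 10.9. The partners kept a close ratio, since H2-DMa had 1.14 to 1.24 times the TPM of H2-DMb1 in females and 1.15 to 1.23 times in males. Both genes were lowest in female 3 and highest in male 3. Leaving out female 1 ended both calls (adjusted p = 0.161 for each in edgeR), with log2 fold changes of 0.81 and 0.82. Leaving out male 3 did so too (0.71 for each, adjusted p = 0.157 and 0.172). Without these libraries only 1 and 7 of all genes passed.

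H2-DMb2 encodes a second, closely similar beta chain. It stood far lower, at 4.24, 3.37 and 2.23 CPM in females and 1.71, 2.80 and 1.95 CPM in males, and its log2 fold change of -0.61 ± 0.30 did not pass (adjusted p = 0.300 in edgeR). Its TPM was 0.0530 to 0.0793 times that of H2-DMb1 in females and 0.0205 to 0.0296 times in males, so the sexes did not overlap in this ratio, which was chosen after the values were seen and not tested. Of the 31-base words in the H2-DMb1 transcripts, 31.4% also occur in those of H2-DMb2, and Salmon divides such reads between the copies by its model. H2-DMa shares no such word with another gene. H2-DMb1 (chr17:34372046-34379204) lies downstream of H2-DMb2 (chr17:34362197-34370529) and H2-DMa (chr17:34338515-34358958) on the plus strand of GRCm39. The annotated span of H2-DMa overlaps Brd2, a chromatin reader gene, but H2-DMa-205, which took 81.1% to 90.4% of its counts, starts past the end of Brd2.

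The class II chains themselves did not pass. H2-Aa, the alpha chain of the I-A molecule, had 231.5, 200.5 and 144.4 CPM in females and 161.4, 277.9 and 201.4 in males. The ranges overlapped, and the log2 fold change was 0.15 ± 0.24. H2-Ab1, its beta chain, had 169.9, 151.9 and 107.3 CPM in females and 125.4, 201.3 and 132.8 in males (0.10 ± 0.23). H2-Eb1, the beta chain of I-E, had 153.0, 140.5 and 103.2 CPM in females and 120.8, 192.8 and 138.5 in males (0.19 ± 0.21). For all 3, the lowest library was female 3 and the highest male 2.

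H2-Ea, the I-E alpha chain, had 2 counts in male 2 and 0 in the other libraries. This gene is known to carry a deletion in C57BL/6 strains. H2-Eb2, an additional beta chain gene, was at 0.0975 to 0.603 CPM (log2 fold change -0.70 ± 0.57).

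Cd74, the invariant chain, followed the chains: 383.9, 330.6 and 232.0 CPM in females, 304.6, 443.2 and 344.6 CPM in males, and a log2 fold change of 0.21 ± 0.22 (adjusted p = 0.623 in edgeR). H2-Oa and H2-Ob, which form H2-DO, an inhibitor of H2-DM known from B cells, were at 0.549 to 1.46 and 1.02 to 1.98 CPM. Their log2 fold changes were -0.23 ± 0.42 and -0.21 ± 0.29, and the sexes overlapped. Set against the class II chains, the TPM of H2-DMa was 0.186, 0.241 and 0.261 times that of H2-Aa in females and 0.413, 0.277 and 0.421 times in males. For H2-DMb1 against H2-Ab1 the ratios were 0.280, 0.305 and 0.312 in females and 0.480, 0.314 and 0.551 in males. Males were above females in both, though male 2 exceeded the highest female library by little. Of the other ratios to H2-Aa, those of Cd74 (1.21 to 1.24 times in females and 1.27 to 1.46 times in males) and H2-Eb1 (0.542 to 0.634 and 0.645 to 0.682 times) did not overlap, and that of H2-Ab1 (0.585 to 0.671 and 0.621 to 0.766 times) did. These ratios were formed after the values were seen and carry no test.

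**Figure D3:**
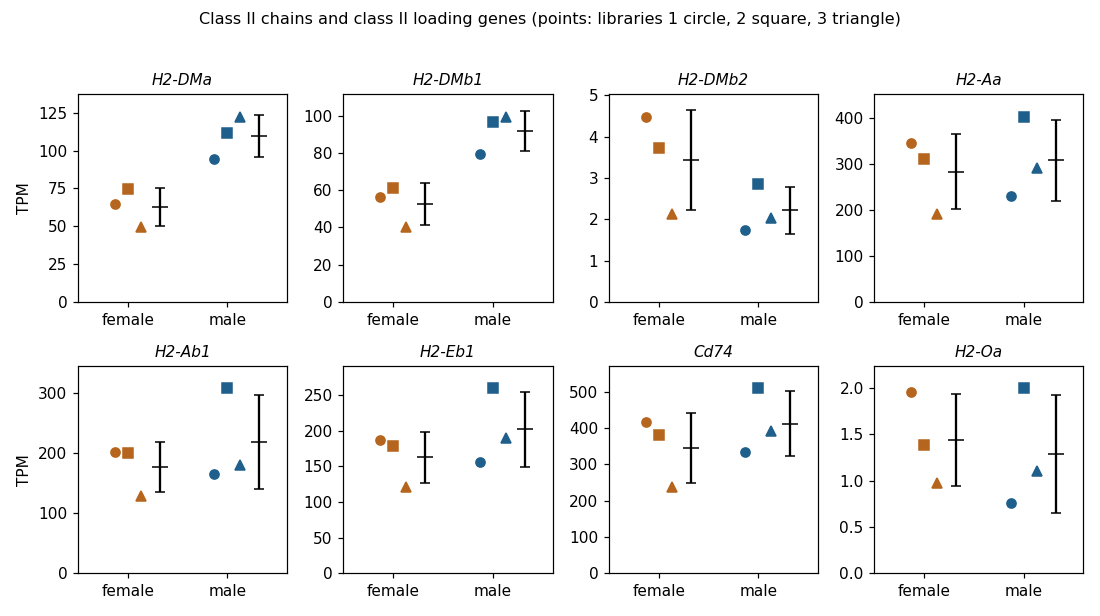
TPM of class II chain and loading genes in each library (3 female, 3 male), with the mean and SD in black at the right of each group. H2-DMa and H2-DMb1 have no male library at or below a female one, whereas H2-Aa, H2-Ab1, H2-Eb1 and Cd74 overlap and peak in male 2.

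Members were also ranked by library within each sex. Among males, 31 of the 34 tested members had their highest CPM in male 2. The exceptions were H2-DMa and H2-DMb1, highest in male 3, and H2-M9, highest in male 1. Among females, 26 had their lowest CPM in female 3, while 21, among them H2-D1, H2-K1 and B2m, were highest in female 2 and 12, among them H2-Aa and Cd74, in female 1. The same counts were not taken over all tested genes. A gain or loss of cells that carry these genes and a change of RNA per cell cannot be told apart in such bulk libraries.

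Markers of the cells that carry class II were read beside the H2-DM result. A list of 10 leukocyte genes summed to 2948, 2455 and 2103 TPM in females and 1751, 2816 and 1412 TPM in males, with 0 of 10 passing edgeR (2 at an unadjusted p under 0.05, Ptprc at -0.78 ± 0.24 and Itgb2 at -0.84 ± 0.26) and all 10 log2 fold changes below 0. A list of 12 macrophage genes summed to 980 to 1767 TPM in females and 959 to 1602 in males. Of these Cx3cr1, a fractalkine receptor of resident macrophages and microglia, rose in males (0.82 ± 0.16, edgeR adjusted p = 0.0568), and 9 of 12 were below 0. At an unadjusted p under 0.05 there were 2 macrophage genes higher in males, Cx3cr1 and Mertk (0.30 ± 0.10), and 3 lower, Mrc1 (-1.27 ± 0.34), Cd163 (-1.05 ± 0.28) and Adgre1 (-0.91 ± 0.30). A list of 10 dendritic cell genes summed to 34.9 to 59.1 TPM in females and 41.7 to 77.9 in males, with 0 passing edgeR, also at an unadjusted p under 0.05, the smallest p being those of Itgax (-0.78 ± 0.34) and Siglech (0.88 ± 0.41). B cell markers summed to 2.27 to 4.72 TPM and T and NK cell markers to 9.95 to 20.6, with 0 passing edgeR in either. At an unadjusted p under 0.05 there was 1 gene in each, Cd79a (-1.04 ± 0.37) and Cd8b1 (1.05 ± 0.42), and next came Ms4a1 (-0.87 ± 0.46) and Cd3d (-0.51 ± 0.40). Beside these unadjusted counts stand 2028 genes higher and 1783 lower in males among all 18424 tested. No gene of these 5 lists was at 0 in all libraries. Neutrophil, endothelial and adipocyte lists, with sums of 804.5 to 2992, 235.8 to 334.6 and 167.6 to 1418 TPM, overlapped between the sexes and had 0 genes passing edgeR (0, 1 and 2 at an unadjusted p under 0.05). Their smallest p were those of Csf3r (-0.76 ± 0.35) and Cxcr2 (-0.52 ± 0.46), Pecam1 (-0.43 ± 0.17) and Tie1 (-0.42 ± 0.20), and Lep (-2.83 ± 0.89) and Plin1 (-2.24 ± 0.84).

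Against the leukocyte list, H2-DMa stood at 21.8 to 30.4 TPM per 1000 TPM in females and 39.6 to 86.8 in males. H2-Aa and Cd74 did not overlap on this scale either, at 90.7 to 126.6 and 112.5 to 155.7 in females and 130.9 to 206.1 and 181.3 to 277.4 in males. Against the Schwann cell list it stood at 2.27 to 3.31 per 1000 in females and 2.06 to 2.61 in males, so the sexes overlapped. For H2-DMb1 the latter ratio was 1.82 to 2.91 and 1.73 to 2.26. H2-Aa ran from 8.70 to 17.8 TPM per 1000 TPM of the Schwann cell list in females and from 4.99 to 9.41 in males. Of the 12 Schwann cell genes, 4 rose in males, among them the myelin genes Mbp (1.13 ± 0.23) and Prx (0.83 ± 0.20) and the calcium-binding protein gene S100b (1.11 ± 0.16), with edgeR adjusted p of 0.0346 to 0.0860. The part of these cell types, and of the central nervous system markers that also moved with sex, in the H2-DM result was not tested.

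**Figure D4:**
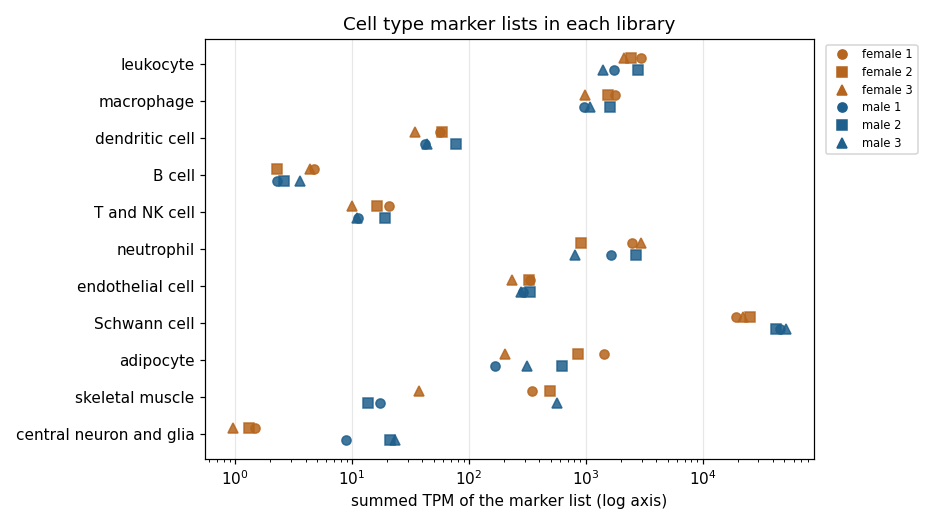
Summed TPM of 11 cell type marker lists in each library on a log axis, females in brown and males in blue. The Schwann cell and the central neuron and glia lists separate the sexes, with males higher, while leukocyte, macrophage and dendritic cell lists overlap.

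Class I heavy chains were abundant and did not pass. H2-D1 had 561.5, 618.2 and 446.6 CPM in females and 457.1, 617.0 and 376.6 CPM in males (log2 fold change -0.16 ± 0.21). H2-K1 had 298.0, 380.1 and 223.4 CPM in females and 245.8, 377.9 and 223.0 in males (-0.09 ± 0.25). These classical chains present peptides to cytotoxic T cells, and both signs turned under a transcript length offset (0.00 and 0.32). B2m, the light chain common to all class I molecules, was the most abundant member by TPM, at 1458 to 2829 in females and 1916 to 2425 in males. Its CPM was 609.2, 788.5 and 555.3 in females and 626.7, 870.8 and 629.5 in males (0.12 ± 0.20).

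Of the 24 class Ib genes, the less variable relatives of these chains, 12 passed the filter and 0 passed edgeR at an adjusted or an unadjusted threshold. There were 5 log2 fold changes above and 7 below 0. H2-T23, which encodes Qa-1, a ligand of NK cell receptors, was the highest by CPM, at 68.2, 87.7 and 58.0 in females and 69.6, 107.7 and 62.3 in males (0.16 ± 0.23). H2-T22, H2-Q4 and H2-Q7 had log2 fold changes of -0.05 ± 0.14, 0.08 ± 0.24 and -0.51 ± 0.40, and H2-Q10, H2-Q6 and H2-M3 of -0.48 ± 0.37, -0.41 ± 0.46 and -0.27 ± 0.22. H2-T24 did not pass at -0.67 ± 0.40 (adjusted p = 0.383), nor did H2-T10 (-0.03 ± 0.30), H2-M9 (0.16 ± 0.35) and H2-Bl (0.18 ± 0.43), the last at no more than 0.408 CPM. Protein-coding transcripts took 19.9% of the H2-T10 counts in female 3 and 0% in every other library. A transcript with a retained intron held 71.9% to 100% of the H2-Bl counts.

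H2-M5 did not overlap between the sexes, at 0.898, 1.35 and 0.509 CPM in females and 1.57, 1.79 and 1.38 in males. Its log2 fold change of 0.79 ± 0.36 did not pass (adjusted p = 0.271 in edgeR), and 61.1% to 100% of its counts lay on a transcript with a retained intron. Class Ib genes differed in how far they share sequence: 95.7% of the words of H2-M3, 97.0% of H2-M5 and 83.9% of H2-T24 occur in no other gene, but only 49.3% of H2-T10, 52.0% of H2-Q6 and 53.1% of H2-T22, beside 71.3% for H2-D1, 73.4% for H2-K1 and 100% for B2m. Counts of genes with a low share are uncertain.

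The genes that feed class I did not pass either. Tap1 and Tap2, which together form the peptide transporter, had log2 fold changes of -0.13 ± 0.25 and -0.05 ± 0.13. Tapbp (tapasin), which bridges the transporter and the class I molecule, had 104.1, 143.6 and 121.4 CPM in females and 143.0, 179.9 and 136.1 in males (0.31 ± 0.16, adjusted p = 0.304 in edgeR). Psmb8, Psmb9 and Psmb10, the interferon-induced catalytic subunits of the immunoproteasome, had log2 fold changes of 0.03 ± 0.21, -0.06 ± 0.30 and -0.01 ± 0.16. Relative to the constitutive subunits they replace, Psmb8 had 0.319 to 0.493 times the TPM of Psmb5 in females and 0.368 to 0.565 times in males, and Psmb9 had 0.0424 to 0.0844 and 0.0548 to 0.104 times that of Psmb6. Psmb10 had 0.385 to 0.514 and 0.495 to 0.763 times the TPM of Psmb7.

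The transactivators were low and did not pass. Ciita, which drives class II and H2-DM transcription, had 14.4, 10.4 and 6.71 CPM in females and 5.25, 10.9 and 8.07 CPM in males (-0.37 ± 0.34, adjusted p = 0.563 in edgeR). Nlrc5, its class I counterpart, had 21.6, 21.4 and 9.86 CPM in females and 10.2, 17.5 and 9.32 CPM in males (-0.51 ± 0.35). Both were below 0, and the sexes overlapped in each. H2-Ke6, which lies in the locus but encodes a dehydrogenase of fatty acid and steroid metabolism (named Hsd17b8 in the later annotation) and has no role in antigen presentation, had 19.9, 20.8 and 21.8 CPM in females and 24.7, 28.6 and 26.5 in males. Its log2 fold change was 0.35 ± 0.11 with an edgeR adjusted p of 0.132, and in DESeq2 the adjusted p was 0.0895.

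The 13 members below the filter were H2-Ea and 12 class Ib genes, H2-M1, H2-M2, H2-M10.1 to H2-M10.6, H2-M11, H2-Q1, H2-Q2 and H2-T3. Each had at most 10 counts in any library, and 5 of them had 0 in all 6. A count of 0 allows up to 3 counts per library, which is 0.0430 to 0.0610 CPM of the unscaled library total, and covers counting error only.

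For some members, chosen after the shares were seen, Salmon's division of counts among transcripts separated the sexes. How often such shares separate the sexes over all genes was not counted. In Tap2, the protein-coding transcript Tap2-201 took 57.3%, 45.9% and 41.1% of counts in females and 31.2%, 27.5% and 28.9% in males, the rest lying almost wholly on Tap2-202, a transcript with a retained intron. With protein-coding transcripts alone, an alternative added after the data were seen, Tap2 was lower in males by -0.73 on the log2 scale (edgeR adjusted p = 0.0697), and it was then the 1 member called higher in females. In the whole libraries, transcripts with retained introns took 2.93% to 3.48% of counts in females and 2.97% to 3.54% in males.

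H2-Eb1 followed a similar split, with 41.6%, 38.7% and 31.5% of counts on protein-coding transcripts in females and 26.7%, 26.1% and 26.5% in males. Most other counts were on H2-Eb1-205, annotated as a target of nonsense-mediated decay, and on protein-coding transcripts alone the log2 fold change of the gene was -0.30 (adjusted p = 0.557). In Psmb8, protein-coding transcripts took 54.7%, 49.0% and 42.0% in females and 40.4%, 31.5% and 44.8% in males, so the sexes overlapped. H2-K1-215, a 457-base transcript with a retained intron, took 8.18% to 12.0% of the counts of H2-K1 in females and 13.6% to 20.4% in males. Because TPM divides by length, it made up 33.4% to 58.3% of the TPM of H2-K1, and on protein-coding transcripts alone H2-K1 stood at 170.2 to 291.7 TPM.

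A protein-coding transcript of H2-Ke6 with 733 bases had 149, 199 and 223 counts in females and 0 in every male library, while H2-Ke6-201 had 452, 427 and 487 counts in females and 885, 918 and 839 in males. Only 23.7% of the words of H2-Ke6 occur in no other gene. Cd74-202, the longer form of the invariant chain, took 16.5%, 16.9% and 16.7% of counts in females and 18.8%, 15.5% and 18.7% in males, with overlap. These shares were chosen after they were seen and have no test. Some members lie over a neighbour on the other strand, H2-Aa over H2-Eb1 and Psmb9 over Tap1. The kit was stranded, but whether the counting used the strand is not stated in the sources used here.

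**Figure D5:**
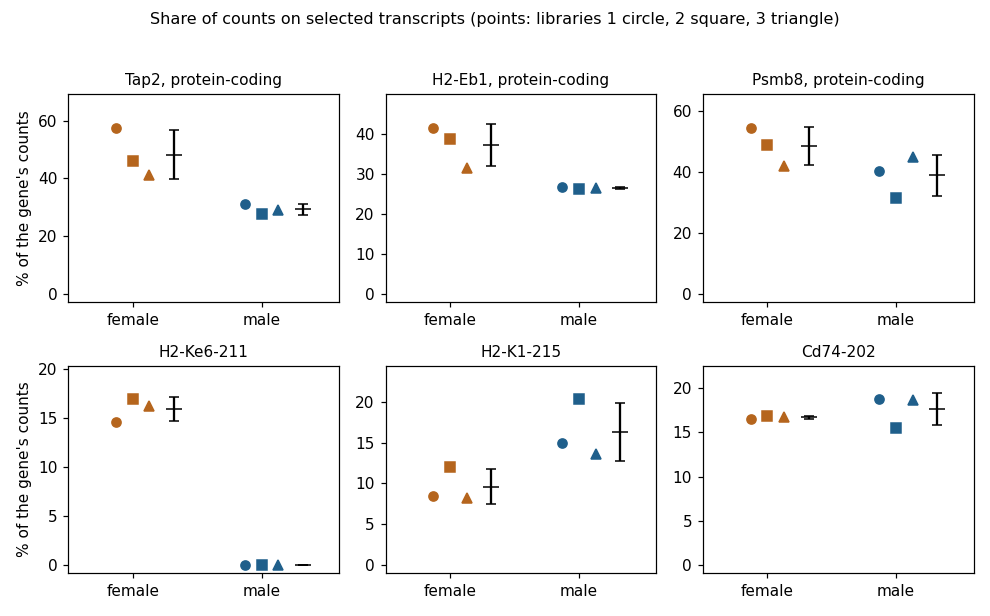
Share of each gene's estimated counts, in percent, on its protein-coding transcripts (top row) or on the named transcript (bottom row) in 3 female and 3 male libraries, with the mean and SD in black. Male libraries lie below females for Tap2 and H2-Eb1, and the 733-base transcript of H2-Ke6 (bottom left) is at 0 in all males. The genes and transcripts were chosen after their shares were seen.

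Genes that act beside the members were read from 6 lists. Of 59 tested genes 1 rose in males and 2 fell, beside 3.81% and 1.46% of all genes. Their median log2 fold change was -0.16. Of 11 class I assembly genes only Erap1, the aminopeptidase that trims class I peptides, passed. It averaged 17.2 TPM in females and 9.59 TPM in males, with a log2 fold change of -0.60 ± 0.13 and an edgeR adjusted p of 0.0642, and 10 of the 11 were below 0. Of 8 tested class I-like genes outside the locus, Hfe, a regulator of iron uptake, rose in males (0.47 ± 0.11, edgeR adjusted p = 0.0863). In the same list Cd1d1, which presents lipids to NKT cells, did not pass edgeR at -1.19 ± 0.33 (adjusted p = 0.107). Nor did Ulbp1, a ligand of the NK cell receptor NKG2D, at -0.81 ± 0.22 (adjusted p = 0.103). By CPM every female library was above every male library in both, as in 11.5% of all tested genes. Males were above females in the same way for Hfe and for Fcgrt (0.20 ± 0.10, edgeR adjusted p = 0.314).

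Of 17 tested interferon signalling genes, Jak1, a kinase of the interferon receptors, fell in males (-0.56 ± 0.13, edgeR adjusted p = 0.0841). It averaged 61.6 TPM in females and 38.8 TPM in males. The others did not pass, among them Irf1 (0.10 ± 0.11), which carries the interferon signal to MHC promoters, and Ifng was below the filter. None of these 3 calls was kept when female 1, female 2 or male 3 was left out. Without male 1 or without male 2, 0 genes of these lists were called higher in males, so Hfe was not kept there either. Without male 1, 1 gene of these lists was called higher in females.

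The 8 class II processing genes were all below 0, with a median log2 fold change of -0.34, and 0 passed edgeR. The endosomal proteases Ctsl (-0.63 ± 0.21) and Ctsd (-0.40 ± 0.17) had an unadjusted p under 0.05, and DESeq2 called Ctsl. Their list sum was 3562 to 5177 TPM in females and 2861 to 3916 TPM in males. Of 7 class II promoter factors 0 passed edgeR. Rfx5, the DNA-binding subunit of RFX, had -0.44 ± 0.14 (adjusted p = 0.142), and DESeq2 called it. The other RFX subunits, Rfxap (0.27 ± 0.11, edgeR adjusted p = 0.240) and Rfxank (0.21 ± 0.13, edgeR adjusted p = 0.376), were above 0 and did not pass either. By CPM every male library was above every female library in both, as in 13.9% of all tested genes. Nfyb, a subunit of NF-Y, had 0.31 ± 0.13 (adjusted p = 0.234). Of 8 co-stimulation genes 0 passed edgeR, the smallest p being those of Icam1 (-0.51 ± 0.17), which DESeq2 called, and Cd83 (0.62 ± 0.31).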

How the data were processed

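Poly-A RNA was sequenced as paired-end reads from stranded libraries. Per the labels, the authors used Trimmomatic 0.39, Salmon 1.5.2 and MultiQC 1.9, and they deposited, for each of 140789 transcripts, Salmon's estimated count, its TPM and its effective length. Reads that match several transcripts are divided among them by Salmon's model.

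Estimated counts and TPM were summed per gene, and the counts were rounded. In R 4.3.3, genes were filtered (filterByExpr), scaled with TMM factors and fitted in edgeR 4.0.16 by sex alone. Its quasi-likelihood test gave the p-values, with Benjamini-Hochberg adjustment over every gene tested, and the SE is the size of the log2 fold change divided by the root of its F statistic. The scripts were tested on simulated data. The threshold was an adjusted p under 0.1. Depth stands with the results. Within each sex no library was a copy of another (chi-square of counts per degree of freedom 48.2 to 145.6). Pairs across the sexes were not compared in this way. Positions and transcript words came from GENCODE M39 on GRCm39, and promoters from RefSeq on GRCm38.p6. That GENCODE release is later than the one behind the deposited counts. The word shares may therefore differ from those of the transcripts that Salmon used. Every tested member, the called genes of each list and, in lists with none, up to the 2 genes with the smallest p were to be named, except that some items are not reported here; other genes were chosen after their values were seen. Members and lists were chosen with earlier results of these data known. Alternatives were DESeq2 1.42.0 (without that filter), limma-voom (limma 3.58.1), other scalings, no filter, a length offset, a replicate block, a threshold of 0.05, each library left out and, added after the data were seen, protein-coding transcripts alone.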

Additional observations from a re-analysis of the deposited data

How the results depend on the processing

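Over all genes 971 passed edgeR, against 1617 with no filter on low counts, 2397 with DESeq2, which was also run without that filter, and 284 at an adjusted p under 0.05, and leaving out 1 library gave 1 to 2612 (1 without female 1, 7 without male 3, 327 without female 2 and 2612 without female 3). The male share of these calls was 72.3%, 66.1% with no filter and 60.4% with DESeq2 and no filter. The replicate numbers did not pair the libraries (correlations of -0.04, -0.30 and -0.30 between same-numbered ones), and with the replicate number as a block 56 genes, 0 members and 0 pathway genes passed in either direction. Of the members, 2 were called higher in males, against 0 to 2 with 1 library left out, and 0 higher in females, against 1 with protein-coding transcripts alone. Over 14 alternatives the log2 fold change stayed at 0.70 to 0.87 for H2-DMa and 0.66 to 0.86 for H2-DMb1, with adjusted p up to 0.161 and 0.172. Among pathway genes, 1 was called higher in males, against 0 with the length offset, at an adjusted p under 0.05 and with library size alone, and 0 to 1 with 1 library left out. The 2 called higher in females became 4 with no filter, 7 with DESeq2 and no filter, 0 at an adjusted p under 0.05 and 0 to 4 with 1 library left out. Of 473 alternative log2 fold changes of members, 46 changed sign, for 19 members other than H2-DMa and H2-DMb1. The length offset gave 0.004 for H2-D1, 0.318 for H2-K1, 0.039 for Tap1, 0.212 for Tap2, 0.260 for Psmb10 and 0.266 for Psmb9. Psmb8 was at -0.020 with library size alone, -0.016 with limma-voom and with the block, and -0.317 with protein-coding transcripts alone, which also gave 0.018 for Psmb9 and -0.297 for H2-Eb1. With 1 library left out, log2 fold changes ran from -0.323 to 0.112 for H2-K1, -0.143 to 0.365 for H2-Bl, -0.074 to 0.326 for H2-M9, -0.072 to 0.395 for H2-Q4, -0.731 to 0.314 for H2-Q6, -0.272 to 0.261 for H2-T10, -0.131 to 0.07 for H2-T22, -0.077 to 0.338 for H2-T23, -0.017 to 0.281 for B2m, -0.381 to 0.089 for Tap1, -0.116 to 0.049 for Tap2, -0.173 to 0.111 for Psmb10, -0.243 to 0.166 for Psmb8, -0.426 to 0.12 for Psmb9, -0.047 to 0.318 for H2-Aa, -0.113 to 0.238 for H2-Ab1 and -0.64 to 0.067 for H2-Oa. The cause was not tested. How far the depth limits the members, at 3 pools per sex, was not tested either.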

Other observations

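Another 8 H2 genes have no protein-coding transcript in the files and were outside the rule. The 4 at 0 (H2-M10.5-ps1, H2-Pa, H2-Pb and H2-Q3) had no counts in any library. H2-K2 had 220.2, 327.8 and 345.6 estimated counts in females and 516.4, 443.6 and 273.6 in males, and H2-Q5 had 180.0, 231.3 and 84.4 in females and 138.4, 159.8 and 90.3 in males, so the sexes overlapped in both. H2-M6-ps had 7.0 to 48.0 estimated counts, with every male library above every female library, and H2-T-ps had 23.2 to 93.1, with overlap. These counts are not scaled for depth and carry no test.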
